A study of Caenorhabditis elegans with 24 samples.

Results

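The comparison set the 3 libraries labelled stage 6, 330 min, against the 3 labelled stage 3, 180 min, 6 of the 24 libraries of a time course of Caenorhabditis elegans embryogenesis. Every library came from the wild-type strain N2, and each held 50 embryos that had been taken from cut adults and staged by the minutes passed since the 4-cell stage, with no mutation, transgene or treatment named for any group. Messenger RNA was counted by CEL-Seq, which tags and reads the 3′ end of polyadenylated transcripts. The 3 libraries at 225 min and the 3 at 270 min lie inside the interval and divide it into steps of 45, 45 and 60 min. Of 20687 worm genes in the count table, 8279 had enough counts to be tested, and the 92 spike-in standards were left out.

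The middle of worm embryogenesis is when most cells stop dividing and begin to take on their final form. The epidermis spreads over the embryo, seals its junctions and squeezes the ball of cells into a worm, while the muscle cells beneath it assemble sarcomeres that are anchored through a basement membrane and the epidermis to the outer matrix. Neurons extend processes, sensory cells build cilia, and the cuticle collagens begin to be made. Regulators that set cell fates early are often transient, and the genes of a differentiated cell follow them.

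Worm counts ranged from 340134 to 666477 in the 180 min libraries and from 380018 to 977908 in those of 330 min, and values below are CPM, counts divided by the scaled total of the library and multiplied by 1000000. Spearman correlations across the tested genes were 0.945 to 0.965 within 180 min, 0.939 to 0.962 within 330 min and 0.698 to 0.79 between them. On the first principal component of the 12 libraries, with 64.1% of the variance, the means ran in the order of time, and 270 min replicate 3 (41.1) stood apart from the other 270 min libraries (18.1 and 19.6), towards 330 min. No gene exceeded 1023 counts in any library, a limit worth 909 CPM in 330 min replicate 3 and 1334 CPM in 180 min replicate 2 and 1757 to 2854 CPM in the other 4, so the most abundant genes are compressed. Summed vitellogenin, yolk protein mRNA of the adult intestine, was 106, 340 and 179 CPM at 180 min and 0, 1151 and 339 CPM at 330 min, and its part in the results was not tested. In whole embryos, fewer cells of a type and less RNA per cell cannot be told apart.

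Over the whole interval 3638 of the 8279 tested genes passed edgeR's quasi-likelihood test at an adjusted p below 0.05, which is 43.9% of them. At 330 min 2075 genes were higher (25.1%) and 1563 were lower (18.9%). The rises were larger than the falls: 1197 genes rose and 411 fell by at least 4-fold in the fit. The median log2 change was 2.47 among the genes called higher (2.11 with genes absent at 1 stage set at their lower bound) and −1.29 among those called lower. The median of all tested genes was 0.05. With libraries scaled to the spike-ins in place of the worm genes, 1612 genes were higher and 313 lower, so that 83.7% of the calls were rises against 57.0%, and the median of all genes moved to 0.51. Falls below are therefore relative to the other worm genes, and the count lower under spike-in scaling is given for the lists with falls. Fewer rises were also called with that scaling although the median of all genes moved up. A smaller count of rises there need not mean smaller rises. Of the genes described below, spike-in scaling ended the calls of the fallers alg-2, baf-1, ced-3, ced-4, ced-9, dpl-1, dsh-2, elt-1, elt-7, epi-1, hlh-1, inx-2, lin-12, lin-35, lin-53, lin-54, mes-2, npp-4, pyk-2, rpn-5, sys-1 and wdr-5.1, and of the risers alg-1, klp-20 and lin-28, with no change of sign. Nothing in the labels says that the 3 samples of a stage were separate cultures, so the p-values measure the spread between these samples.

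Each step on its own had far fewer calls. From 180 to 225 min 467 genes passed (5.64%), with 254 higher and 213 lower. The step from 225 to 270 min had 1019 (12.3%), with 679 higher and 340 lower, and the step from 270 to 330 min had 634 (7.66%), with 511 higher and 123 lower. The median size of the fitted log2 change over all tested genes was 0.33, 0.40 and 0.31 in the 3 steps and 0.77 over the interval. These contrasts share libraries, and the 3 log2 changes of a gene add up to its change over the interval. All 3 counts rest partly on single libraries and on the scaling. The first step had 229 calls without 225 min replicate 3, 248 without the replicate 2 libraries and 120 without the replicate 3 libraries. The middle step had 566 without 270 min replicate 3, 566 without the replicate 2 and 352 without the replicate 3 libraries. The last step had 353 and 251 without 270 min replicate 1 or 2, 361 and 370 without 330 min replicate 1 or 2, and 241 and 12 without the replicate 1 or 2 libraries. With spike-in scaling the 3 steps had 106, 346 and 131.

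**Figure D1:**
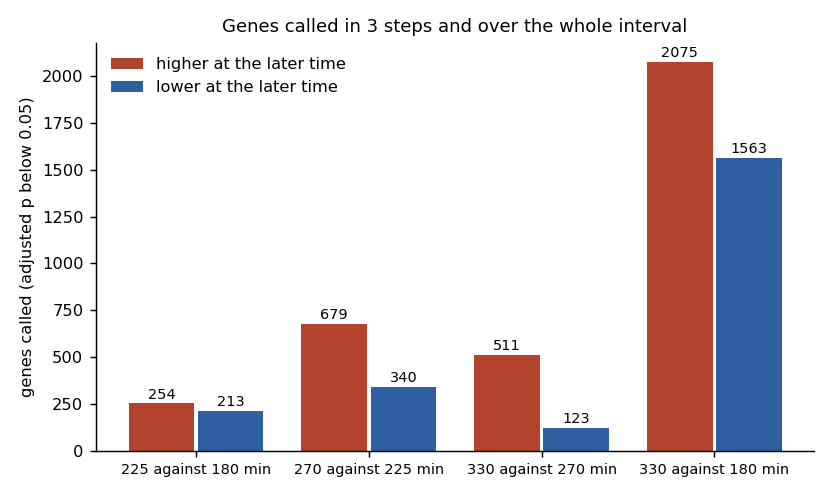
Number of genes called higher (red) and lower (blue) at the later time of each contrast, by edgeR at an adjusted p below 0.05, for the 3 steps (left) and the interval from 180 to 330 min (right). The interval has 2075 higher and 1563 lower genes, against at most 679 and 340 in a step.

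The libraries at 225 and 270 min enter the contrast only through the shared estimate of spread, the filter on low counts and the scaling. They show how the change was laid out in time. Among the genes called higher, the fitted changes of all 3 steps were upward in 1327 of 2075 (64.0%). Among those called lower all 3 were downward in 1052 of 1563 (67.3%). Over all tested genes the 3 steps shared the direction of the interval in 37.3%. The mean CPM at 225 and 270 min both lay between those of the ends in 74.1% of rises and 71.7% of falls. Over all tested genes they did so in 47.0%. Called genes were selected on the 2 end stages, so part of these gaps is built in. In this fit the middle step had the largest median share of the change, 43.0% for the rises and 43.8% for the falls, and was the largest of the 3 steps for 992 of the rises and 756 of the falls. The first step was the largest for 673 rises and 453 falls, and the last for 410 and 354. That order rests partly on 270 min replicate 3. Without that library the median shares of the middle step were 36.3% and 39.5% and those of the last 32.8% and 32.9%, and the last step was the largest for 648 rises and 515 falls. Without the replicate 3 libraries the last step had the larger median share among the rises, 38.2% against 35.9%. With spike-in scaling the median share of the middle step was 38.7% for the rises and 58.5% for the falls. These shares are over the genes called in the main fit, of which 313 were called lower with that scaling.

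Several genes moved in small steps of similar size. The wdr-5.1 gene, which encodes a subunit of histone H3 lysine 4 methyltransferases, measured 151, 188 and 290.2 CPM at 180 min, 150.4, 135 and 184 at 225, 133, 133 and 107 at 270 and 89.3, 91.3 and 103 at 330 min. Its first and last groups did not overlap. The rule by which genes were named requires this of called genes, so it adds no support here or below. Of the 8279 tested genes 4135 had no overlap between the end stages, among them 738 of the 4641 not called. The log2 changes were −0.40, −0.35 and −0.38 in the 3 steps, none of which passed (adjusted p by edgeR 0.4, 0.37 and 0.44), and −1.12 ± 0.22 (SE) over the interval (adjusted p by edgeR 7.5e-05). For sma-1, the apical heavy spectrin that the epidermis needs to elongate, the means were 185, 294, 477 and 695 CPM. The sma-1 steps of 0.70, 0.69 and 0.53 did not pass (adjusted p by edgeR 0.19, 0.1 and 0.28), and the sum of 1.93 ± 0.28 did (adjusted p by edgeR 1.2e-06). The nuclear pore gene npp-4 had steps of −0.57, −0.44 and −0.38 (adjusted p by edgeR 0.11, 0.21 and 0.4), which add up to −1.39 ± 0.21 (adjusted p by edgeR 1.3e-06). These 3 genes were picked after their values were seen, from those named by rule.

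Across all 8 stages, the genes called higher had their highest mean mostly later, at 500 min in 1071, at 410 min in 571 and at 330 min in 246 of them, and 94 were highest at 60 min. Among the genes called lower the highest mean was at 120 min in 564, at 60 min in 487 and at 180 min in 379. So 330 min was the highest of the 8 stages for 246 of the 2075 genes called higher, and 180 min for 379 of the 1563 called lower. Of the 4641 genes not called, 1375 were highest at 500 min and 1357 at 60 min. The calls themselves keep genes called higher from peaking at 180 min and genes called lower from peaking at 330 min. Both counts were 0, so part of this pattern is fixed by the calls.

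**Figure D2:**
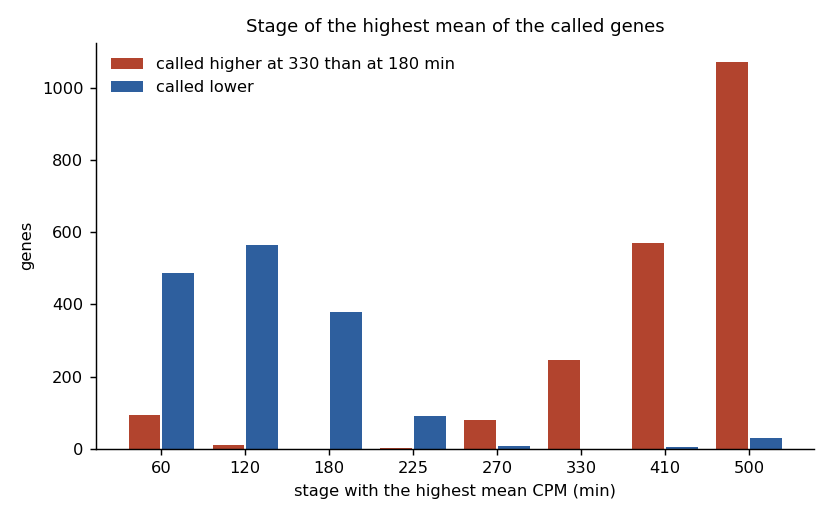
For the genes called higher (red) and lower (blue) at 330 than at 180 min, the stage among all 8 with the highest mean CPM of 3 libraries. Most of the higher genes peak at 410 or 500 min and most of the lower genes at 60, 120 or 180 min. Genes not called, which peak mostly at 60 or 500 min, are not shown.

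The largest fitted rise was that of egl-46, a zinc finger factor of neuroblast exit from division and neuron fate (chromosome V, 6679123 to 6681573, in the WBcel235 annotation). It had no count at 180 min, 45.5, 29.4 and 48.1 CPM at 225 min, 112, 144 and 268 at 270 min and 474, 564 and 358 at 330 min. Every library of a later stage stood above every library of the stage before it. Against a floor of 3 counts over the 180 min libraries it was at least 216-fold higher (adjusted p by edgeR 1.5e-14). For a gene without a count at 180 min the fitted change, and so its rank, depends on the fit's prior count. The collagen dpy-7 (chromosome X, 7536467 to 7537792), which the epidermis secretes into the furrows of the cuticle, went from 0, 1.30 and 0 CPM, 1 count in all, to 824, 1178 and 609.7 CPM. This was a ratio of summed counts of 1170.0 with an exact 95% counting interval of 210.0 to 46300.0 (adjusted p by edgeR 5.0e-16). Others among the 12 largest rises, all without a count at 180 min, were the homeobox genes ttx-1 and unc-42, the intermediate filament gene ifa-3, the matrix receptor gene mup-4 and 6 genes known only by sequence names. Of these, ttx-1, which specifies a thermosensory neuron, was already at 94.4, 93.2 and 116 CPM at 225 min and stood at 170.1, 194 and 219 CPM at 330 min, at least 102-fold above the floor (adjusted p by edgeR 1.8e-14). In contrast ifa-3 had no count at 225 min and reached 201, 249 and 148 CPM, at least 91.7-fold above it (adjusted p by edgeR 5.9e-12). In all, 656 tested genes had no count at 180 min, of which 328 were called higher. At 330 min 222 had none, of which 36 were called lower. These counts depend on depth, and the 330 min libraries together held more counts than those of 180 min.

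By difference in CPM the largest rises were in dpy-17, sqt-3, dao-2, mig-6 and hil-7. Levels of the collagen dpy-17 were 411, 372 and 349 CPM at 180 min and 1615, 2439 and 875 CPM at 330 min. All 3 later libraries stood above the earlier ones although they lie near their limits of 1757, 2829 and 909 CPM. The fitted log2 change of 2.11 ± 0.35 (adjusted p by edgeR 2.0e-05) is compressed by these limits. The linker histone gene hil-7 rose from 5.05, 3.91 and 13.95 to 1257, 2019 and 784 CPM (log2 7.60 ± 0.54, adjusted p by edgeR 2.0e-11), with most of the rise after 225 min, when it measured 27.98, 24.5 and 21.2 CPM.

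Among the falls, C10C5.3, which has no gene name in the annotation, went from 35.3, 62.6 and 75.3 CPM to no count, at least 40.3-fold lower (adjusted p by edgeR 1.9e-09). The sdz genes, named for their dependence on the maternal factor SKN-1 and zygotic expression, gave 3 of the 12 largest falls. Of these sdz-4 fell from 156, 106 and 126 to 0, 0 and 0.889 CPM, from 188 counts to 1, with most of it gone by 225 min (10.5, 34.4 and 4.24 CPM). This was a ratio of summed counts of 256 with an exact 95% interval of 45.3 to 10100.0 (adjusted p by edgeR 1.9e-11). The Skp1-related genes skr-7 and skr-8 fell too, from 1136, 923 and 1350.5 to 34.4, 16.6 and 30.2 CPM for skr-7 (log2 −5.31 ± 0.43, adjusted p by edgeR 2.7e-10), but they are near copies of each other whose reads may have been split between them. The gene F23A7.4, known only by its sequence name, was among the 5 largest falls in CPM, from 1802, 1059 and 1747 to 439.7, 371 and 394 CPM. Its steps of −0.71, −0.51 and −0.72 did not pass alone, and the sum of −1.93 ± 0.27 did (adjusted p by edgeR 2.5e-07).

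**Figure D3:**
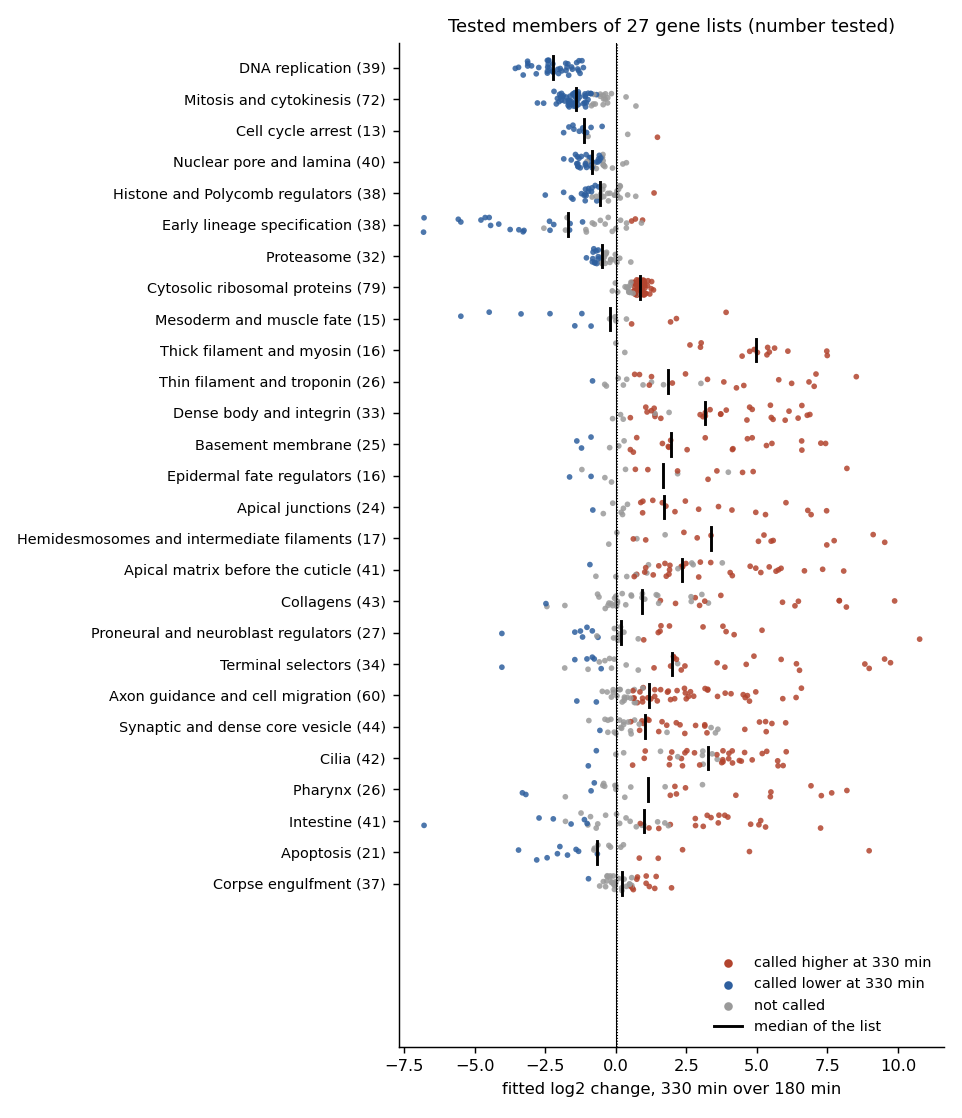
Fitted log2 change from 180 to 330 min of each tested member of 27 gene lists, 1 point per gene, red where called higher, blue where called lower and grey where not called; the bar is the list's median, the number tested follows the name, and the dotted line is the median of all tested genes (0.05). Replication genes lie left of it, mitosis genes mostly left of it, and muscle, junction, matrix and cilia genes mostly right of it. Points of genes with few counts depend on the fit's prior count.

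Lists below count the members that passed the filter on low counts, which leaves 1 of 40 replication genes, 25 of 67 cilia genes and 135 of 178 collagens untested, and their counts stand against the background shares of 25.1% higher and 18.9% lower. With spike-in scaling 0 were lower in each of these lists with 1 or 2 falls: thin filament, apical junctions, elongation, matrix before the cuticle, collagens, axon guidance, synaptic vesicles, cilia, EGF, FGF and Ras, hedgehog-related genes, innexins, corpse engulfment and microRNA targets.

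All 39 tested genes of DNA replication were lower at 330 min, with a median log2 change of −2.23 and a range of −3.56 to −1.15. With spike-in scaling 22 of them were lower and the median was −1.80. The 6 members of the MCM2-7 replicative helicase were all among them, and orc-1, a subunit of the origin recognition complex, which loads the helicase, measured 139, 106 and 123 CPM at 180 min and 5.15, 24.9 and 14.2 CPM at 330 min. The highest library at 330 min lay far below the lowest at 180 min, 8.30-fold lower in the means (log2 −3.12 ± 0.40, adjusted p by edgeR 4.5e-08). The flap endonuclease gene crn-1, which also acts in the degradation of DNA of dying cells, fell from 419, 351 and 359.9 to 29.2, 33.2 and 38.2 CPM with no overlap (log2 −3.45 ± 0.27, adjusted p by edgeR 1.4e-12). For mcm-2, an overlapping gene and so uncertain, values of 419, 289.5 and 508 CPM fell to 25.8, 35.95 and 38.2 CPM, and the middle step carried most of the change (−1.06, −2.20 and −0.30 on the log2 scale). The sliding clamp pcn-1, outside the naming rule, dropped from an average of 863 to 163 CPM (log2 −2.40 ± 0.28, adjusted p by edgeR 1.1e-08).

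Of 72 tested genes of mitosis and cytokinesis, 56 were lower and 0 higher, with a median of −1.41, and 7 were lower with spike-in scaling (median −0.96). They included the spindle positioning regulators gpr-1 and gpr-2, close paralogs whose counts are uncertain. Levels of gpr-1 were 136, 87.4 and 148 CPM at 180 min and 15.5, 13.8 and 20.4 CPM at 330 min, and the groups did not overlap (log2 −2.78 ± 0.31, adjusted p by edgeR 3.2e-09). The inner centromere protein gene icp-1 fell from 189, 184 and 321 to 48.1, 30.4 and 69.3 CPM (log2 −2.11 ± 0.27, adjusted p by edgeR 3.8e-08). Some mitotic regulators of high level did not pass. Of these cyb-3, a cyclin B, measured 2476, 1328 and 2536 CPM and 1273, 1361 and 855 CPM (adjusted p by edgeR 0.056), and cdk-1, the mitotic kinase, 361, 576 and 486 CPM and 198, 243 and 408 CPM (adjusted p by edgeR 0.057). Both pairs of groups overlap, and for cyb-3 180 min replicates 1 and 2 and 330 min replicate 3 stand close to the limits given above. With single libraries left out both were called lower, cyb-3 without 180 min replicate 2 or 225 min replicate 3 (adjusted p by edgeR 0.0188 and 0.0419) and cdk-1 without 180 min replicate 1 or 330 min replicate 3 (0.0392 and 0.00801).

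In a list of 13 tested genes that hold cells out of the cycle, 10 were lower and 1 higher, and none was lower with spike-in scaling. The exception was cki-1, the inhibitor of cyclin-dependent kinases that arrests cells in G1. It measured 338, 329.9 and 324 CPM at 180 min, 832, 679.7 and 689 at 225, 1052, 925 and 925 at 270 and 917, 1131 and 719.9 CPM at 330 min. The 180 min libraries lay close together below all others, and the log2 change was 1.47 ± 0.20 (adjusted p by edgeR 1.4e-07). The 10 that fell included the retinoblastoma homolog lin-35 and its DREAM complex partners lin-53, lin-54 and dpl-1. The histone-binding protein gene lin-53 fell from 479, 553 and 734 to 156, 254 and 208 CPM (log2 −1.52 ± 0.20, adjusted p by edgeR 1.3e-07).

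**Figure D4:**
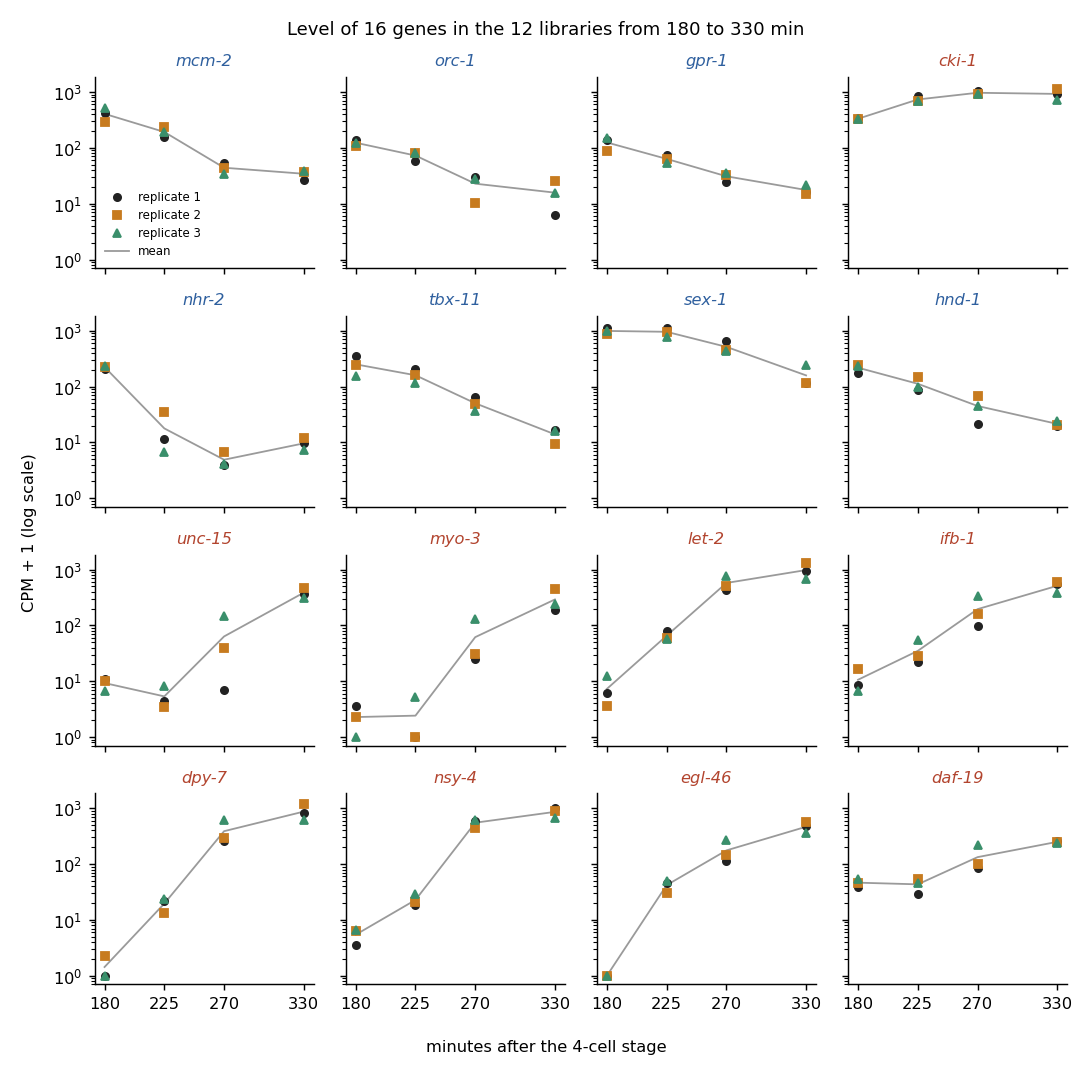
CPM plus 1 (log axis) of 16 genes against minutes after the 4-cell stage, 1 symbol per library and replicate number and a grey line through the stage means; names in blue were called lower and in red higher at 330 than at 180 min. The genes were chosen by the naming rule and, within it, after their values were seen. Of called genes that rule admits only those whose 180 and 330 min libraries do not overlap, so every panel shows such a gene.

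Genes of the nuclear envelope and of chromatin were mostly lower or not called. Of 40 tested genes of the nuclear pore, lamina and nuclear transport 26 were lower and 0 higher, with a median of −0.85, and 0 were lower with spike-in scaling (median −0.39). Without the replicate 2 libraries 15 were. The chromatin-bridging factor baf-1 fell from 452, 447 and 745 to 156, 149 and 230.2 CPM with no overlap (log2 −1.58 ± 0.21, adjusted p by edgeR 1.5e-07). Among 38 genes of histone modification and Polycomb function 17 were lower and 1 higher (median −0.57) and with spike-in scaling 1 and 1. Without the replicate 3 libraries 10 were lower. The gene that rose was jmjd-3.1, a demethylase of histone H3 lysine 27, from 273, 258 and 151 to 569, 628 and 564 CPM, while mes-2, the methyltransferase for the same residue, went from 58.04, 66.5 and 83.7 to 27.5, 35.95 and 33.8 CPM. Neither pair of groups overlapped (jmjd-3.1 log2 1.35 ± 0.22, adjusted p by edgeR 2.8e-06; mes-2 log2 −1.09 ± 0.35, adjusted p by edgeR 0.011). The mes-2 call was lost without the replicate 2 or the replicate 3 libraries (adjusted p by edgeR 0.0518 and 0.117). The chromatin remodeller isw-1, which overlaps another gene, had the largest fall of that list at −2.50 ± 0.23 (adjusted p by edgeR 2.8e-11).

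Among 18 tested genes of sex determination and dosage compensation, the lowering of X chromosome expression in hermaphrodites, 8 were lower and 1 higher, with 2 lower under spike-in scaling. Without the replicate 3 libraries 5 were lower. The X-linked nuclear receptor sex-1, one of the signals by which the embryo counts its X chromosomes, measured 1138, 866 and 971 CPM at 180 min, 1137, 947 and 785 at 225, 650.1, 456 and 435 at 270 and 115, 116 and 242 CPM at 330 min. The first step was small and the fall came after it. Its log2 change was −2.60 ± 0.25 (adjusted p by edgeR 7.7e-11). The master switch xol-1, which sex-1 represses, went from 50.5, 129 and 66.97 to 0, 5.53 and 7.11 CPM (log2 −4.11 ± 0.62, adjusted p by edgeR 6.3e-06). In contrast dpy-27, a condensin subunit of the complex that binds X, measured 399, 325 and 405 and 323, 329 and 272 CPM and did not pass (log2 −0.29 ± 0.18, adjusted p by edgeR 0.2).

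Of 38 tested regulators of early lineages, 19 were lower and 3 higher, the median was −1.68, and 14 were lower and 0 higher with spike-in scaling (median −1.19). The nuclear receptor nhr-2 dropped early: it measured 209, 223 and 237 CPM at 180 min, 10.5, 34.4 and 5.66 at 225 min and 8.59, 11.1 and 6.22 CPM at 330 min. The groups were far apart (log2 −4.78 ± 0.40, adjusted p by edgeR 2.2e-11), and the first step alone was −3.82 (adjusted p by edgeR 5.0e-08). By contrast the T-box gene tbx-11 fell mainly after 225 min, from 353, 239 and 156 and 203, 157 and 116 to 65.01, 46.9 and 35.8 and 15.5, 8.30 and 15.1 CPM at the 4 stages (log2 −4.15 ± 0.38, adjusted p by edgeR 1.4e-10). The T-box genes tbx-8 and tbx-9, which act together in muscle and epidermal patterning, fell by 2.33 and 4.49 on the log2 scale (adjusted p by edgeR 2.3e-07 and 1.2e-12). The GATA factor elt-1, which starts epidermal fate, fell from 255, 383 and 315 to 65.3, 91.3 and 141 CPM (log2 −1.64 ± 0.27, adjusted p by edgeR 4.4e-06). The endoderm factor end-1, below the level for naming, averaged 29.6 CPM at 180 min and had no count at 330 min.

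Of 15 tested mesoderm regulators 7 were lower and 4 higher (median −0.22, and 0 with spike-in scaling, where 4 were lower). The bHLH gene hnd-1, which acts with the muscle factor hlh-1, measured 177, 239.9 and 234 CPM at 180 min and 18.9, 19.4 and 23.1 CPM at 330 min, with no overlap (log2 −3.36 ± 0.32, adjusted p by edgeR 8.6e-11). The MyoD homolog hlh-1 itself, an overlapping gene, went from 149, 132 and 134 to 56.7, 41.5 and 73.8 CPM (log2 −1.20 ± 0.28, adjusted p by edgeR 5.7e-04).

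Of 16 tested genes of the thick filament 14 were higher and 0 lower, against a background of 25.1% called higher, with a median of 4.96 (4.90 with absent genes at their bound) and 14 higher with spike-in scaling. Many of these genes are abundant, and a fit without genes that ever exceeded 500 counts removes them. It removed 8 of 16 thick filament, 11 of 26 thin filament and 8 of 25 basement membrane genes. It also removed 6 of 17 hemidesmosome, 14 of 41 apical matrix and 6 of 43 collagen genes. Among the rest 6 thick filament, 8 thin filament and 11 basement membrane genes were higher, and 8 hemidesmosome, 19 apical matrix and 8 collagen genes. The smaller counts follow in part from that removal. Paramyosin, unc-15, the core of the thick filament, measured 10.1, 9.13 and 5.58 CPM at 180 min, 3.50, 2.45 and 7.07 at 225, 5.91, 37.5 and 143 at 270 and 368, 473 and 311 CPM at 330 min. It was low through 225 min, uneven between the 270 min libraries and high in all 330 min libraries (log2 5.44 ± 0.76, adjusted p by edgeR 1.1e-05). Both body wall myosin heavy chains rose, unc-54 from 12.6, 6.52 and 0 to 318, 313 and 228 CPM (adjusted p by edgeR 1.3e-05). The chain myo-3 rose from 2.52, 1.30 and 0, 2 counts in all, to 191, 443 and 236 CPM, which is a ratio of summed counts of 197 with an exact 95% interval of 54.4 to 1630.0 (adjusted p by edgeR 1.3e-06). The pharyngeal myosin myo-1, outside the naming rule, stayed at means of 3.05 and 3.60 CPM and did not pass (log2 0.32 ± 0.93, adjusted p by edgeR 0.82).

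On the thin filament, 16 of 26 tested genes were higher and 1 lower (median 1.85, or 1.48 with absent genes at their bound). The troponin I gene tni-1 rose from 0, 1.30 and 2.79, 2 counts in all, to 524, 769 and 462 CPM. The troponin C gene pat-10 rose from 0, 7.82 and 13.95 to 553, 794 and 357 CPM, and for neither did the stages overlap (adjusted p by edgeR 1.4e-12 and 1.6e-06). The actin genes act-1 and act-2, near copies of each other and so uncertain, did not pass (log2 0.38 ± 0.19 and −0.34 ± 0.19, adjusted p by edgeR 0.096 and 0.15), although act-1 did without 330 min replicate 3 (adjusted p by edgeR 0.0348). Genes of the dense body, which anchors thin filaments to the membrane through integrin, gave 28 higher and 0 lower of 33 (median 3.17). Among them pat-2, the alpha integrin of muscle and an overlapping gene, was higher at each successive stage, from 17.7, 7.82 and 11.2 through 105, 56.4 and 91.9 and 251, 225 and 280.3 to 373, 343 and 282 CPM (log2 4.83 ± 0.32, adjusted p by edgeR 3.8e-14). The calcium pump sca-1, overlapping, measured 681, 561 and 753 and 639, 642 and 558 CPM and did not pass (log2 −0.12 ± 0.19, adjusted p by edgeR 0.65).

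The basement membrane between muscle and epidermis gave 19 higher and 3 lower of 25 genes (median 1.94), with 0 lower under spike-in scaling. Both chains of type IV collagen, the network of this membrane, rose. The chain emb-9 measured 5.05, 2.61 and 5.58 CPM at 180 min, 24.5, 14.7 and 9.90 at 225, 139, 171 and 241 at 270 and 374, 525 and 333 CPM at 330 min. The chain let-2, an overlapping gene, measured 5.05, 2.61 and 11.2 CPM, then 76.95, 58.9 and 56.6, then 437, 510.4 and 771 and last 953, 1289 and 687 CPM. For emb-9 each stage stood clear of the stage before it, and for let-2 the 270 and 330 min libraries overlap (log2 6.59 ± 0.41 and 7.43 ± 0.52, adjusted p by edgeR 5.1e-15 and 3.2e-12). The SPARC homolog ost-1, which binds collagen IV, rose from 5.05, 5.22 and 11.2 to 1266, 1258 and 670.2 CPM, and nidogen, nid-1, from 17.7, 28.7 and 19.5 to 522, 819 and 454 CPM (log2 7.26 ± 0.56 and 4.66 ± 0.29, adjusted p by edgeR 2.1e-10 and 5.1e-15). The laminin chains differed: epi-1, overlapping, fell from 593, 438 and 739 to 328, 282 and 341 CPM (log2 −0.88 ± 0.20, adjusted p by edgeR 3.7e-04). The chain lam-3, outside the naming rule, rose from a mean of 109.9 to 622 CPM (log2 2.53 ± 0.30, adjusted p by edgeR 5.3e-08).

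In the epidermis 8 of 16 tested fate regulators were higher and 2 lower. With spike-in scaling 0 were lower, and 5 were higher without the replicate 3 libraries. The GATA factor elt-3, which maintains the fate of the main epidermis, rose from 25.2, 19.6 and 13.95 to 223, 169 and 182 CPM (log2 3.27 ± 0.29, adjusted p by edgeR 1.2e-11), opposite to the fall of elt-1 given above. Its seam relatives elt-6 and egl-18 rose by 3.58 ± 0.32 and 2.19 ± 0.35 (adjusted p by edgeR 2.4e-11 and 4.4e-06). Genes of the apical junctions gave 17 higher and 1 lower of 24 (median 1.71). The claudin-like gene nsy-4 rose from 2.52, 5.22 and 5.58 CPM at 180 min through 17.5, 19.6 and 28.3 and 585, 441 and 625 to 1029, 882 and 672 CPM, and the middle step was 4.56 of its 7.47 ± 0.38 (adjusted p by edgeR 1.2e-16). The core catenin hmp-1, the alpha-catenin that ties cadherin to actin, was as high at 180 as at 330 min within its spread, 273, 296 and 366 and 364, 404 and 334 CPM (log2 0.24 ± 0.20, adjusted p by edgeR 0.34). The junction protein ajm-1, outside the naming rule, rose from a mean of 85.7 to 1084 CPM (log2 3.64 ± 0.29, adjusted p by edgeR 1.3e-12).

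Of 37 genes of the actomyosin and spectrin that drive elongation, 15 were higher and 2 lower (median 0.38), with 8 higher under spike-in scaling (median 0.78). Of the 37, 12 exceeded 500 counts in some library, and 6 of the others were higher with those left out. The spectrins rose, sma-1 as given above and unc-70, the beta spectrin and an overlapping gene, from 111, 107 and 94.9 to 414, 407 and 380.4 CPM (log2 1.93 ± 0.21, adjusted p by edgeR 2.3e-09). Hemidesmosomes and their intermediate filaments, which link muscle through the epidermis to the cuticle, gave 13 higher and 0 lower of 17 (median 3.37, or 2.88 with absent genes at their bound). The filament gene ifb-1, overlapping, was higher at each successive stage, from 7.57, 15.6 and 5.58 to 20.99, 26.99 and 53.7, 97.5, 156 and 329 and 549.7, 608 and 372 CPM (log2 5.50 ± 0.52, adjusted p by edgeR 1.3e-08). The apical receptor mup-4 had no count at 180 or 225 min and 136, 179.8 and 132 CPM at 330 min, at least 71.8-fold above the floor of 3 counts (adjusted p by edgeR 5.6e-06). The fusogens eff-1 and aff-1, which merge epidermal cells and lie below the level for naming, had means of 0 and 0.435 CPM at 180 min and 19.6 and 17.7 CPM at 330 min (adjusted p by edgeR 2.8e-06 and 2.9e-05).

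The matrix laid down before the cuticle gave 30 higher and 1 lower of 41 genes (median 2.35, or 1.92 with absent genes at their bound). The zona pellucida domain gene dyf-7, which holds sensory dendrite tips in place, went from 0, 1.30 and 0, 1 count in all, through 7.00, 4.91 and 8.49 and 44.3, 31.9 and 68.5 to 173, 163 and 111 CPM. This was a ratio of summed counts of 210.0 with an exact 95% interval of 37.3 to 8310.0 (adjusted p by edgeR 1.9e-12). The Patched-related gene ptr-4, needed for this matrix, rose from 2.52, 3.91 and 0 to 149, 205 and 100.4 CPM (adjusted p by edgeR 1.0e-06). Of the 178 collagens matched, 43 were abundant enough to be tested. Of these 13 were higher, not far above the background share, and 1 lower. Those that rose included the furrow collagens dpy-2, dpy-7 and dpy-10 and the early collagens dpy-17 and sqt-3. Levels of dpy-10, an overlapping gene, were 10.1, 14.3 and 8.37 CPM at 180 min, 76.95, 80.97 and 99.01 at 225, 363, 507 and 724 at 270 and 953, 1524 and 712 CPM at 330 min (log2 6.47 ± 0.40, adjusted p by edgeR 2.9e-14). By contrast dpy-17 already stood at a mean of 377 CPM at 180 min.

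In the nervous system, 11 of 27 tested proneural and neuroblast regulators were higher and 7 lower (median 0.17), with 1 lower under spike-in scaling. The neurogenin homolog ngn-1 rose from 15.1, 14.3 and 11.2 to 158, 69.1 and 123 CPM (log2 3.09 ± 0.40, adjusted p by edgeR 7.0e-08). Another member, ceh-36, a homeobox gene of several neuron lineages, fell from 63.1, 59.99 and 50.2 to 1.72, 0 and 5.33 CPM (log2 −4.04 ± 0.48, adjusted p by edgeR 1.1e-08). Terminal selectors, the factors that install and keep the identity of a neuron type, gave 18 higher and 6 lower of 34 (median 1.99), with 1 lower under spike-in scaling. The motor neuron selector unc-3 had no count at 180 or 225 min, 62.1, 120.1 and 109 CPM at 270 min and 79.01, 171 and 117 CPM at 330 min, at least 58.8-fold above the floor (adjusted p by edgeR 4.4e-11). The LIM homeobox gene lin-11 went from 0 at 180 min through 7.00, 4.91 and 5.66 and 109, 60.04 and 90.3 to 139, 141 and 123 CPM, at least 66.2-fold (adjusted p by edgeR 5.2e-12). For unc-86, the POU factor of touch and other neurons, 0, 2.61 and 0 CPM, 2 counts in all, became 132, 160.4 and 137 CPM, a ratio of summed counts of 106 with an exact 95% interval of 29.2 to 882 (adjusted p by edgeR 6.1e-12).

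Axon guidance and migration genes gave 39 higher and 2 lower of 60 (median 1.19). The cadherin fmi-1, which guides axons along pioneers, rose from 17.7, 9.13 and 16.7 to 546, 412 and 323 CPM with no overlap (log2 4.96 ± 0.43, adjusted p by edgeR 1.7e-10). The netrin receptors unc-40, outside the naming rule, and unc-5, both overlapping, did not pass (log2 −0.09 ± 0.30 and −0.31 ± 0.38, adjusted p by edgeR 0.84 and 0.54). Genes of synaptic and dense core vesicles gave 22 higher and 1 lower of 44 (median 1.05, or 0.84 with absent genes at their bound). The acetylcholine receptor chaperone ric-3 rose from 0, 2.61 and 0 to 56.7, 52.5 and 50.7 CPM (adjusted p by edgeR 1.9e-08). The gene of the vesicle protein synaptotagmin, snt-1, outside the naming rule, was at means of 0.841 and 1.49 CPM and did not pass (adjusted p by edgeR 0.84). In a fit to the 6 libraries alone, where 6172 genes had enough counts, 13 of this list were higher.

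Of the genes of cilia, the sensory endings of neurons, 31 of 42 tested were higher and 2 lower, and 19 had no count at 1 of the 2 stages. The median was 3.25, or 1.92 with absent genes at their bound. In a fit to the 12 libraries of the interval, where 6368 genes had enough counts, 8 were higher. That count is out of the cilia genes that passed the filter there, which may be fewer than 42. The RFX factor daf-19, which switches on ciliary genes and overlaps another gene, measured 37.9, 45.6 and 53.02 CPM at 180 min, 27.98, 53.98 and 45.3 at 225, 82.7, 97.6 and 216 at 270 and 263, 252 and 234 CPM at 330 min. It was no higher at 225 than at 180 min, and 270 min replicate 3 stood highest of its stage (log2 2.45 ± 0.29, adjusted p by edgeR 9.3e-09). The gene of a kinesin-2 subunit, klp-20, a motor of intraflagellar transport and overlapping, rose from 109, 108 and 89.3 to 199, 207 and 212 CPM (log2 1.01 ± 0.23, adjusted p by edgeR 4.8e-04).

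In the gut, 18 of 41 tested genes were higher and 6 lower (median 0.99), with 3 lower under spike-in scaling. The brush border filament gene ifb-2 rose from 0, 3.91 and 2.79 to 101, 171 and 82.7 CPM and the cysteine protease gene cpr-6 from 25.2, 43.03 and 27.9 to 357, 548 and 369 CPM (adjusted p by edgeR 5.1e-08 and 1.1e-05). None of the 3 cpr-6 steps passed alone (log2 1.82, 1.35 and 0.46, adjusted p by edgeR 0.066, 0.06 and 0.66). The GATA factor elt-7 fell from 50.5, 88.7 and 109 to 27.5, 16.6 and 32.9 CPM (log2 −1.59 ± 0.32, adjusted p by edgeR 9.3e-05). Its partner elt-2, which runs the differentiated intestine and lies outside the naming rule, had means of 52.8 and 55.6 CPM and did not pass (log2 0.02 ± 1.05, adjusted p by edgeR 1). That SE is well above the 0.32 of elt-7, so elt-2 cannot be called level from these values. In the pharynx 11 of 26 genes were higher and 4 lower, with 1 lower under spike-in scaling. The NK homeobox gene ceh-22, which turns on pharyngeal muscle genes and overlaps another gene, had no count at 180 min and 61.8, 49.8 and 48.00 CPM at 330 min, at least 26.5-fold above the floor (adjusted p by edgeR 8.0e-10). The organ selector pha-4 was high at both ends, 669, 569.9 and 597 and 1086, 907 and 660.4 CPM, and did not pass (log2 0.53 ± 0.24, adjusted p by edgeR 0.069), although it did without 330 min replicate 3 (adjusted p by edgeR 0.0191). Of 16 tested innexins, the gap junction proteins, 10 were higher and 1 lower. Of these inx-13 rose from 7.57, 13.04 and 2.79 to 479, 940.3 and 404 CPM (log2 6.02 ± 0.44, adjusted p by edgeR 4.0e-12) and inx-2 fell from 828, 805 and 1284 to 491, 539 and 514 CPM (log2 −0.91 ± 0.22, adjusted p by edgeR 9.6e-04).

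Of 22 Notch genes 7 were lower and 3 higher (median −0.36, and 0.04 with spike-in scaling, where 2 were lower). The ligand dsl-2 fell from 144, 142 and 204 to 8.59, 2.77 and 6.22 CPM (log2 −4.63 ± 0.38, adjusted p by edgeR 2.5e-12). Its relative dsl-6, of the same ligand family, rose from 0, 0 and 2.79, 1 count in all, to 254, 451 and 211 CPM. This was a ratio of summed counts of 403 with an exact 95% interval of 72.00 to 15900.0 (adjusted p by edgeR 3.8e-08). The receptor lin-12 fell from 68.1, 56.1 and 44.6 to 17.2, 16.6 and 40.00 CPM (log2 −1.04 ± 0.32, adjusted p by edgeR 0.0086), a call lost without 330 min replicate 1 (adjusted p by edgeR 0.0539) and without the replicate 1 or 2 libraries (0.161 and 0.155).

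Of 34 Wnt genes 10 were higher and 5 lower, both near the background shares. With spike-in scaling 8 were higher and 0 lower. The ligand mom-2 and the receptors mig-1 and lin-17 rose (log2 1.40, 1.44 and 1.18, adjusted p by edgeR 1.7e-04, 1.4e-04 and 0.0028). The Dishevelled gene dsh-2 fell from 265, 395 and 318 to 94.5, 58.1 and 137 CPM and the beta-catenin sys-1 from 162, 154 and 176 to 68.7, 27.7 and 86.2 CPM, without overlap (adjusted p by edgeR 1.2e-06 and 5.0e-04). In the EGF, FGF and Ras pathway 15 of 28 were higher and 2 lower. The FGF ligand let-756, overlapping, had no count at 180 min and 77.3, 52.5 and 67.5 CPM at 330 min, at least 34.3-fold above the floor (adjusted p by edgeR 4.7e-09). Ras itself, let-60, measured 379, 346 and 427 and 423, 509 and 392 CPM and did not pass (log2 0.20 ± 0.19, adjusted p by edgeR 0.42). Of 35 hedgehog-related and Patched-related genes, which in the worm serve mainly the epidermis and its matrix, 19 were higher and 2 lower (median 2.14, or 1.92 with absent genes at their bound). The hedgehog-related gene qua-1 had no count at 180 or 225 min and 94.5, 88.5 and 65.8 CPM at 330 min, at least 39.5-fold above the floor (adjusted p by edgeR 1.3e-08).

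In programmed cell death, 5 of 21 tested genes were higher and 9 lower (median −0.66), with 3 lower under spike-in scaling. The trigger egl-1, the BH3 gene that starts the pathway, rose from 17.7, 9.13 and 11.2 to 91.04, 52.5 and 47.1 CPM with no overlap, although no step passed alone (log2 2.36 ± 0.45, adjusted p by edgeR 4.8e-05). The genes downstream of it, outside the naming rule, fell: the Bcl-2 homolog ced-9 from a mean of 706 to 280.3 CPM, the Apaf-1 homolog ced-4 from 233 to 84.9 CPM and the caspase ced-3 from 19.04 to 3.25 CPM (adjusted p by edgeR 2.4e-07, 7.8e-06 and 8.9e-04). The bZIP gene ces-2, which regulates the death of the sister cells of pharyngeal neurons, rose from 0, 1.30 and 0, 1 count in all, to 101, 63.8 and 126 CPM at 225 min, 836, 696 and 623 at 270 min and 457, 470.2 and 461 CPM at 330 min. It was highest inside the interval and still higher at its end than at its start (adjusted p by edgeR 1.4e-16). Of 37 genes of corpse engulfment and degradation 11 were higher, not far above the background share, and 1 lower (median 0.20). With spike-in scaling 3 were higher (median 0.65), and without the replicate 2 libraries 5. The lysosomal protease cpl-1 rose from 134, 112 and 112 to 460.3, 597 and 356 CPM (log2 1.97 ± 0.26, adjusted p by edgeR 9.2e-08). The receptor ced-1, outside the naming rule, did not pass (log2 0.48 ± 0.28, adjusted p by edgeR 0.16), although it did without 180 min replicate 1 (adjusted p by edgeR 0.0234).

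Of 79 tested cytosolic ribosomal protein genes 65 were higher and 0 lower, with a median of 0.85. With spike-in scaling 25 were higher, although the median moved up to 1.18. Of the 79, 77 exceeded 500 counts in some library, so that their changes are compressed. With those genes left out, 0 of the few that remain were higher. The ribosomal protein gene rpl-30 rose from 197, 262 and 393 to 651, 866 and 539 CPM (log2 1.27 ± 0.23, adjusted p by edgeR 1.8e-05). By contrast rps-15 measured 1184, 1019.8 and 1130.1 and 1532, 2182 and 882 CPM, with 330 min replicate 3 near its limit. It did not pass (log2 0.46 ± 0.27, adjusted p by edgeR 0.16), although it did without that library (adjusted p by edgeR 0.0182). Of 32 proteasome genes 12 were lower and 0 higher (median −0.48), 0 were lower with spike-in scaling (median −0.03), and 2 without the replicate 3 libraries. The gene of its regulatory subunit rpn-5 fell from 144, 117 and 170.2 to 84.2, 66.4 and 91.5 CPM (log2 −0.78 ± 0.23, adjusted p by edgeR 0.0059), a call lost without the replicate 3 libraries (adjusted p by edgeR 0.0585). Of 45 translation factors 7 were lower and 1 higher, below the background shares, and with spike-in scaling 1 was lower and 0 higher. Of 50 nuclear genes of oxidative phosphorylation 9 were higher and 2 lower, also below those shares (median 0.25). With spike-in scaling 0 were higher and 1 lower (median 0.68). Of 28 genes of glycolysis and gluconeogenesis 7 were higher, near the background share, and 2 lower, below it, with 1 lower under spike-in scaling. The paralogous pyruvate kinases had opposite calls: pyk-1 rose from 65.6, 59.99 and 53.02 to 198, 158 and 137 CPM (log2 1.45 ± 0.22, adjusted p by edgeR 1.8e-06). The gene pyk-2, overlapping, fell from 50.5, 46.9 and 55.8 to 12.02, 19.4 and 13.3 CPM (log2 −1.81 ± 0.39, adjusted p by edgeR 2.2e-04).

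The title of the series names microRNAs, short RNAs that bring Argonaute proteins to target mRNAs. Of 21 tested genes of that pathway 2 were higher, below the background share, and 4 lower, near it. The median of −0.11 became 0.33 with spike-in scaling, where 0 were higher and 1 lower. The microRNA Argonautes alg-1 and alg-2 had opposite calls. Values of alg-1, an overlapping gene, were 189, 222 and 181 CPM at 180 min and 378, 409 and 309 CPM at 330 min, and those of alg-2 were 489.6, 439 and 544 and 297, 343 and 282 CPM. Neither pair of groups overlapped, which the naming rule requires. The log2 changes were 0.87 ± 0.20 and −0.68 ± 0.19 (adjusted p by edgeR 4.6e-04 and 0.003). The alg-2 call was lost without the replicate 3 libraries (adjusted p by edgeR 0.104). The heterochronic gene lin-28, which encodes an RNA-binding protein, is overlapping and is itself a microRNA target, rose from 182, 166 and 114 to 301, 301 and 310.2 CPM in 3 steps none of which passed (log2 0.97 ± 0.23, adjusted p by edgeR 6.1e-04). Of 11 genetically characterised microRNA targets 7 were higher and 1 lower, among them cki-1 and egl-1, given above, and cog-1, a homeobox gene of taste neuron asymmetry that overlaps another gene (log2 2.06 ± 0.39, adjusted p by edgeR 5.4e-05). These libraries hold mRNA counts and no microRNA values.

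Among the nuclear chromosomes, the X had the largest share of tested genes called higher and the smallest called lower. Of 1119 X-linked genes 391 were higher (34.9%) and 149 lower (13.3%), and the median log2 change was 0.48. On the autosomes 21.3 to 25.4% were higher and 17.4 to 22.7% lower. These shares carry no test of the difference between chromosomes, and they describe genes, not replicates.

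**Figure D5:**
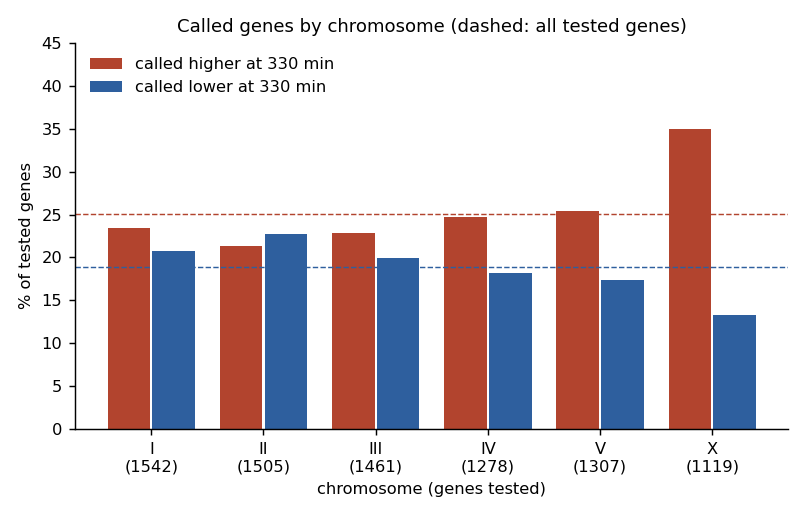
Share of the tested genes of each chromosome called higher (red) and lower (blue) at 330 than at 180 min, with the number tested under each name; dashed lines give the shares over all tested genes (25.1% and 18.9%). The X has 34.9% higher and 13.3% lower.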

How the data were processed

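CEL-Seq mRNA was measured in 24 libraries, 3 at each of 8 times from 60 to 500 min. The authors deposited whole-number counts per gene. HTSeq made them, as the submitters' processing notes have it. Aligner, genome build, annotation and use of strand were not given in the sources used here. No count exceeds 1023, and a 5-base molecular tag has 1024 forms; whether such tags were counted is not stated in the labels. All table columns were mapped to samples by name. Of 20687 worm identifiers 20083 matched the WBcel235 annotation, and 5689 of those overlap another gene's exons, so that without strand their counts are uncertain.

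Counts were fitted with edgeR 4.0.16 (R 4.3.3, limma 3.58.1) by the quasi-likelihood method with robust estimates, TMM scaling and 1 level per stage over all 24 libraries (16 residual degrees of freedom), after a filter of 10 counts (total 15), which kept 98.21% of counts. Library totals were 172620 to 977908, and the 604 unmatched identifiers held 0.423% of all worm counts. P-values were Benjamini-Hochberg adjusted over all tested genes in each contrast, with calls below 0.05. SEs are the log2 change over the root of F. CPM use the scaled totals of tested genes. Lower bounds use a floor of 3 counts over a stage's summed libraries, and intervals for genes with 1 to 3 counts are exact at 95%, both covering counting error only.

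The members and lists were chosen with earlier results of these data known. Genes were named by rule: called, with no overlap between the 3 libraries of each stage, and 50 CPM or more on average in whichever stage was higher, taking the 12 largest rises and falls, the 5 largest CPM differences each way, and up to 5 and 2 per list in its majority and other direction, plus up to 2 uncalled members of at least 100 CPM. Genes outside it are said to be so and were chosen after their values were seen. Replicate numbers were not used to pair samples in the main fit. Alternatives were other scalings (DESeq2 1.42.0 size factors, library size, spike-ins), filters, DESeq2's test, a replicate block, 6 or 12 libraries, a correction for tag collisions, genes over 500 counts left out, and each 180 or 330 min library or replicate number left out. Leaving out each 225 or 270 min library was chosen after seeing the data.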

Additional observations from a re-analysis of the deposited data

How the results depend on the processing

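No gene called over the interval took the opposite call under any alternative. The number of genes higher and lower at 330 min was 2181 and 1474 with DESeq2's size factors, 1966 and 1626 with library size alone, 2463 and 1411 with no filter, 2255 and 1713 with a 10 CPM filter, and 2024 and 1326 with DESeq2's test. It was 1470 and 1261 in a fit to the 6 libraries, 1672 and 1275 in one to 12, 1868 and 1404 with genes over 500 counts left out, and 2131 and 1582 with a correction for tag collisions. Scaling to the spike-ins left 313 genes lower, with the median of all genes at 0.51 in place of 0.05. With 1 library of 180 or 330 min left out the counts ran from 1902 to 2026 higher and 1284 to 1457 lower, and with 1 replicate number left out from 1547 to 2036 higher and 987 to 1415 lower, the lowest without replicate 2. Leaving out 1 library of 225 or 270 min, chosen after seeing the data, gave 2135 to 2194 higher and 1521 to 1592 lower. A replicate block gave 2264 higher and 1731 lower. Same-numbered deviations of the stages correlated at 0.333, 0.169 and 0.00066, and unlike-numbered ones at −0.266 to 0.108. The 0.333 and 0.169 were thus the highest of all. The column headers of the counts carry a separate prefix series for each replicate number across the stages, and what the series stand for is not stated. Whether the numbers pair the samples is not settled by the headers or these values, and the main fit has no block. Of 297 genes named by rule and called, spike-in scaling lost 97 and the other alternatives 0 to 46. Only pdi-2, a protein disulfide isomerase gene that was not called, changed sign and passed, at a log2 change of 0.46 with the collision correction. Step counts moved most, as given above. The block gave 639, 1311 and 855. Depth limits the weakest genes, since 1 count was worth 0.889 to 2.79 CPM in the 6 libraries.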

Other observations

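Of 80 tested nuclear hormone receptors, the largest family of ligand-regulated transcription factors in the worm, 38 were higher and 4 lower (median log2 change 1.12), with 36 higher and 2 lower under spike-in scaling, 24 higher in the fit to the 6 libraries and 66 with no filter on low counts. The receptor nhr-31, which shapes the tube of the excretory cell, measured 2.52, 2.61 and 8.37 CPM at 180 min and 65.3, 52.5 and 47.1 CPM at 330 min (log2 3.68 ± 0.45, adjusted p by edgeR 1.9e-08). Of 15 Hox genes and cofactors 3 were higher and 3 lower, both near the background shares, with 2 lower under spike-in scaling. The Hox gene lin-39 of the middle body rose from 63.1, 54.8 and 41.9 to 230.2, 191 and 239 CPM with no overlap (log2 2.04 ± 0.25, adjusted p by edgeR 1.9e-08). Of 21 genes of collagen processing and secretion 11 were higher and 0 lower (median 0.55). With spike-in scaling 5 were higher (median 0.99), and without the replicate 2 libraries 6. The prolyl hydroxylase subunits phy-2 and dpy-18, which modify collagen chains, rose from 17.7, 19.6 and 25.1 to 239, 138 and 192 CPM and from 162, 115 and 134 to 433, 282 and 305 CPM (log2 3.21 ± 0.33 and 1.33 ± 0.22, adjusted p by edgeR 3.7e-10 and 4.5e-06).

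Germline and maternal genes were mostly not called. Of 29 germline and P granule genes 8 were lower and 1 higher, and the median of −0.34 became 0.15 with spike-in scaling, where 1 was lower. The Nanos homolog nos-2 of the primordial germ cells, an overlapping gene, fell from 167, 166 and 142 through 66.5, 145 and 94.8 and 20.7, 35.7 and 6.23 to 6.87, 8.30 and 21.3 CPM (log2 −3.45 ± 0.62, adjusted p by edgeR 1.2e-04). Of 39 oocyte and maternal regulators 5 were lower and 3 higher, and the median of −0.28 became 0.24 with spike-in scaling, where 0 were lower. Among chaperones 10 of 47 were higher and 5 lower, both below the background shares, with 0 lower under spike-in scaling. The small heat shock gene hsp-12.2, overlapping, rose from 5.05, 3.91 and 2.79 to 249, 315 and 153 CPM (log2 5.80 ± 0.56, adjusted p by edgeR 2.3e-09). Of 146 neuropeptide genes 38 could be tested, of which 7 were higher and 5 lower, both below the background shares. With spike-in scaling 4 were lower. The neuropeptide gene flp-15 went from 7.57, 10.4 and 2.79 to 39.5, 91.3 and 79.99 CPM (log2 3.13 ± 0.46, adjusted p by edgeR 5.9e-07).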
